A study of Mus musculus with 1 sample.

Results

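Plet1 (placenta expressed transcript 1, ENSMUSG00000032068) was followed through the alveolar macrophages (AMs) of 1 wild-type (WT) mouse, as 1 gene of the 11918 in the single-cell table and in all 2055 of its cells. The gene was picked with its values in these cells already known, from its link to cells rich in the chemokine transcript Cxcl2, so its level across cells grouped by Cxcl2 and by the mitotic gene Top2a is a description and was not tested. The cells came from the lung of an 8-12 week old animal with floxed Hdac3 alleles and no Cre. The labels give its background as FVB/NJ, backcrossed to C57BL/6 for 10 generations, and the methods give another number for the Csf1r-iCre cross. They were sorted as CD45+CD11c+SiglecF+ and profiled with the 10x Genomics 3' kit, which tags each captured transcript near its 3' end with a unique molecular identifier (UMI). With 1 library from 1 mouse, no value below has a replicate, and no interval covers variation between mice. Intervals are at the 95% level. Those of rates and ratios are for counting error only and leave out the spread between cells, so they are too narrow as intervals for a group of cells. The cKO library, in which Hdac3 is deleted, was not analysed here.

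Plet1 encodes a glycoprotein held on the outer cell surface by a glycosylphosphatidylinositol (GPI) lipid anchor, and it is best known as a marker of epithelial and trophoblast progenitor cells. In the lung it is also made by AMs, and macrophage Plet1 has been described as a signal for repair of the alveolar epithelium after viral injury. AMs live on the air side of the alveoli, where they take up surfactant and debris, and they depend on GM-CSF, TGF-β and the lipid-sensing receptor PPAR-γ. Tnf, Cxcl2 and the genes of the NF-κB feedback loop are rapidly induced in macrophages by microbial products.

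The gene lies on the plus strand of chromosome 9 at 50494525-50505482 (GRCm38, GENCODE M21) and has a pair of annotated transcripts of 4 exons each, which differ in exon 4. In the longer transcript, exon 4 spans 50504277-50505482 and holds the end of the coding sequence and a 3' UTR that starts at 50504543, which is where a 3' kit reads the gene. An antisense gene, Plet1os, covers the locus on the minus strand (50488795-50507823) and shares 185 bases with that exon 4, at 50504621-50504805. Plet1os held 9 UMIs in 9 cells, against 7958 UMIs for Plet1, and the strand setting of the counting is not given in the sources used here. None of the 406 sequences of 98 bases, the length of the cDNA read, in the last 300 bases of the protein-coding Plet1 transcripts occurred in a transcript of another gene (0%). The nearest protein-coding gene downstream, Pts, of tetrahydrobiopterin synthesis, held 619 UMIs.

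The 250 bases before the annotated start are shown because they hold the core promoter of the gene (RefSeq, GRCm38.p6, plus strand, chr9:50494275-50494524). Capitals mark the TATA box letters TATAAA.
Plet1 promoter: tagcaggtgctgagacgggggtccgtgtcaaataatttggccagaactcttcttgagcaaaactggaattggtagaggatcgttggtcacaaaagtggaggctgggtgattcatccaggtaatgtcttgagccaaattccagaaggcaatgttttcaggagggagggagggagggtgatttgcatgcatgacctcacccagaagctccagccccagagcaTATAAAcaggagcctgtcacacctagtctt

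TATAAA, searched on the strand of the gene, began 30 bases before the start and is present in 7.59% of 32851 promoter windows of the same length. AGGTCA, the core of nuclear receptor sites such as that of PPAR-γ, was matched once on either strand, 62 bases before the start (14.0% of windows). TGACTCA, the AP-1 motif, and CACGTG, a form of the E-box, had 0 matches on either strand and are present in 4.46% and 6.02% of windows. Other forms of the E-box were not searched. These are matches of letters in 1 window and say nothing of binding.

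The library held 7222978 UMIs, 1143 to 8603 per cell with a median of 3278, and 384 of the cells (18.7%) had over 5% mitochondrial UMIs. The cells held AM transcripts, apart from 8 cells described below that had few. Of the 27 listed AM identity genes, 26 are in the table, all with UMIs (Siglec5 has no row). Chil3, Ear2 and Mrc1 were detected in 100%, 98.8% and 92.7% of cells. The sort markers Siglecf and Itgax (CD11c) were detected in 41.4% and 61.1%, and Bhlhe41, the lowest of the list, in 24.2%. Markers of other cells varied by list. The 3 of 6 B and plasma cell genes in the table held 1028 UMIs in 73 cells. The 4 of 6 monocyte genes held 2359 UMIs in 1101 cells, 2295 of them of Fn1, fibronectin. The 2 of 5 neutrophil genes held 345 UMIs in 261 cells, 278 of them of the alarmin S100a8. The 2 of 5 general epithelial genes, Epcam and Cdh1, held 2418 UMIs in 1273 cells. None of the 4 listed eosinophil or 4 listed fibroblast genes has a row in the table, and the 1 of 7 T and NK cell genes with a row held 3 UMIs. A gene without a row was not analysed here, which is not the same as a gene at 0.

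Plet1 was one of the abundant transcripts of these cells. It gave 7958 UMIs, or 11.02 per 10000 UMIs (10.8 to 11.3), and ranked 133 of the 11915 genes with a UMI. The median cell held 3 Plet1 UMIs and the highest held 31. Scaled to the depth of each cell, the median was 9.93 UMIs per 10000, the quartiles were 5.84 and 14.7, and the 95th and 99th percentiles were 24.95 and 36.0, with a highest cell at 62.1. On the same scale Plet1 lay beside Dynll1, a dynein light chain (11.1 UMIs per 10000), Gm42418 (11.1) and Sec61g, of the protein translocation channel (11.03), just above it, and mt-Nd2, of mitochondrial complex I (11.01), Oaz1, of polyamine control (10.9), and the ribosomal Rpl27 (10.9), just below. It was close to Mrc1, the mannose receptor, at 9.66 UMIs per 10000 and to Abcg1, a cholesterol exporter, at 11.6, both of the AM identity list, but far under Chil3, a secreted chitinase-like protein, at 136. 3' tag counts of different genes can differ in capture, so this order is one of UMIs and not of molecules in the cell. Of the 3'-end sequences of Rpl27, Oaz1, Sec61g and mt-Nd2, 53.8%, 46.0%, 34.7% and 15.8% also occur in other genes, which makes their own place uncertain.

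A Plet1 UMI was detected in 1894 of 2055 cells, or 92.2% (90.9 to 93.3, exact binomial). With each cell thinned to 2000 UMIs, which left out 299 shallower cells, the share was 85.8%. The 161 cells with no Plet1 UMI were shallow, with a median of 2168 UMIs against 3398.5 in the cells with Plet1. In 5 groups of 411 cells from shallow to deep, the share followed depth, at 78.8%, 92.7%, 92.0%, 97.8% and 99.5%. The level did not follow that order, at 11.55, 11.5, 10.1, 10.8 and 11.3 UMIs per 10000.

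A low level for comparison came from 8 cells with few AM transcripts. They had under 100 UMIs per 10000 of the AM identity genes (37.9 to 92.6, where the median of all cells was 349 and the next cell stood at 135), a limit set after the values were seen. These 8 cells, with 1404 to 6667 UMIs each and a median of 2786.5, held 3 Plet1 UMIs in 3 cells (37.5%, exact interval 8.52 to 75.5), where 27.6 UMIs would be expected at the level of the other cells. That is 1.20 UMIs per 10000 (0.247 to 3.51) against 11.1 in the other 2047 cells, or 10.9% of their level. Summed over the 8 cells, other markers were high, with 382 UMIs per 10000 of the B and plasma cell list and 523 of the MHC class II list. The other cells held 0.10 and 11.6. Most of the B and plasma cell UMIs came from 1 cell, so that list does not describe the 8 cells as a set. That cell, the one with most Jchain, the joining chain of secreted antibody, held 940 Jchain UMIs of 3952 and 1 Plet1 UMI. The pair of cells with over 100 Cst3 UMIs per 10000 (322 and 503) held 0 Plet1 UMIs of 10623. Cst3 encodes cystatin C, a protease inhibitor made at high level by dendritic cells.

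The number of zero-Plet1 cells lay between a pair of expectations. Counting noise alone at the depth of each cell would leave 106 cells without a Plet1 UMI, and counting noise with the excess spread given below would leave 173, where 161 were seen. The second number is from a negative binomial whose spread was estimated from these same cells, so it is a fit and not an independent expectation. It gave 303 cells at 1 UMI, where 268 were seen, and 306 at 3 UMIs, where 350 were seen. Of the 1340 cells deep enough to expect at least 3 Plet1 UMIs, 49 had none, against 21.7 expected from counting alone. MHC class II transcripts looked high in the zero-Plet1 cells (Cd74, the invariant chain, 18.0 UMIs per 10000 against 5.00 in cells with Plet1), but 567 of their 681 Cd74 UMIs came from cells under the AM identity limit. Without those, the zero-Plet1 cells had 3.15 Cd74, 0.746 H2-Ab1 and 9.78 Cst3 UMIs per 10000, against 5.00, 1.30 and 8.94 in the cells with Plet1. The cells with Plet1 still included 3 cells under that limit, so the 2 sides were not cut alike.

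**Figure D1:**
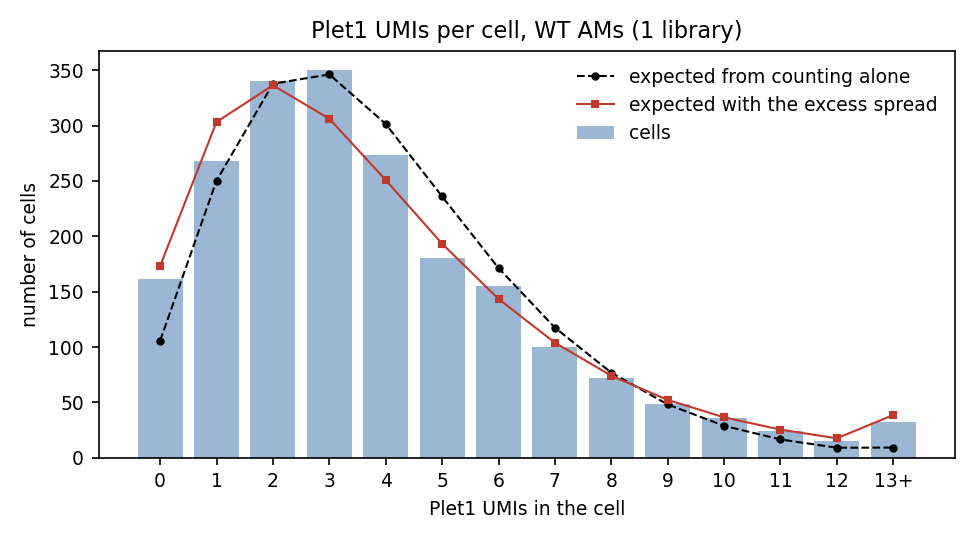
Number of cells (vertical axis) by Plet1 UMIs in the cell (horizontal axis, 13 or more pooled) in all 2055 WT cells, the 8 with few AM transcripts included. Bars are cells and the dashed line is the number expected from counting alone. The solid line is the number expected with the excess spread, which was fitted to the same cells. The bars at 0 (161 cells) and at 13 or more (32 cells) stand above the dashed line (106 and 9.25).

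Plet1 varied between cells by more than counting noise. After scaling to depth, its variance was 7.44 against 4.67 from Poisson counting, 1.59 times as large. The excess squared coefficient of variation, the variance beyond counting divided by the squared mean, was 0.184, which corresponds to a coefficient of variation of 0.429 between cells. Of the 100 genes nearest in mean, 78 had a lower excess, with a median of 0.0840 and quartiles of 0.0527 and 0.161. Of the 26 AM identity genes, 6 had a lower excess than Plet1, among them Mrc1 (0.136), Il18 (0.111), Pparg (0.0749) and Atp6v0d2 (0.0648), and 20 had a higher one, from Itgax (0.192) and Chil3 (0.197) to Marco (1.38) and Bhlhe41 (2.52). It was far below that of Cxcl2 (5.42).

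Without the 1% of cells with most Plet1 the excess was 0.0993, which a cut at the top lowers for any gene. Of the neighbouring genes, 77 of the 100, each without its own top 1%, were lower (median 0.0402). At 13 or more UMIs there were 32 cells, where counting alone would give 9.25 and counting with the excess spread, fitted to these same cells, 38.7.

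**Figure D2:**
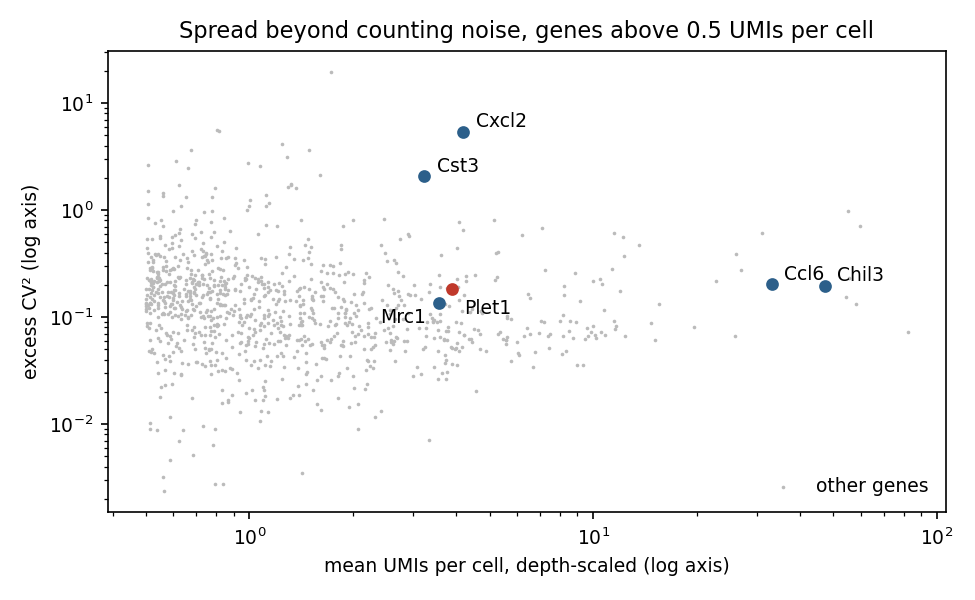
Excess squared coefficient of variation (vertical, log axis) against mean UMIs per cell after depth scaling (horizontal, log axis); each point is 1 of the 1025 genes above 0.5 UMIs per cell with an excess over 0.001. Plet1 (red, 0.184) lies in the upper part of the band of genes of its mean and far under Cxcl2 (5.42).

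The 21 cells with most Plet1, the top 1%, held 46.0 UMIs per 10000, from 36.1 to 62.1 in single cells and from 5 to 31 raw UMIs. Their median depth was 2206 UMIs. 16 of the 21 (76.2%) were in the upper Cxcl2 group defined in the next paragraph, which held 33.2% of all cells. In the top of the 10 bins of Cxcl2-positive cells, which held 6.62% of all cells, there were 12. A Top2a UMI was found in 0 of the 21 and in 6.23% of all cells, a share at which few would be expected among 21. The 21 cells held 71.6 Cxcl2 UMIs per 10000, against 12.5 over all cells. Tnf stood at 11.9 against 1.30, Egr1, an immediate-early transcription factor, at 13.7 against 2.39, and Nfkbiz, an atypical IκB protein, at 8.17 against 0.874. The top Cxcl2 bin, to which 12 of the 21 cells belong, itself held 10.1 Tnf, 13.9 Egr1 and 5.79 Nfkbiz UMIs per 10000. These values are thus not particular to cells high in Plet1. Other immediate-early genes were lower in the 21 cells than over all cells, Fosb at 2.41 against 3.10 and Atf3 at 1.11 against 1.96. In contrast Plaur, the GPI-anchored urokinase receptor, stood at 8.54 UMIs per 10000 in these cells against 10.3 over all cells.

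Cells were then grouped by Cxcl2, which encodes a neutrophil-attracting chemokine, into 688 cells with no UMI and into lower (684 cells) and upper (683 cells) groups of those with one. Plet1 stood at 10.1 UMIs per 10000 (9.67 to 10.5) without Cxcl2, 10.4 (10.1 to 10.8) in the lower group and 12.4 (12.0 to 12.9) in the upper group. The quartiles over single cells overlapped widely, at 5.12 to 14.1, 5.84 to 13.8 and 6.75 to 16.8 UMIs per 10000 in the same order. The ratio of upper to none was 1.23 (1.16 to 1.30) and that of lower to none was 1.03 (0.977 to 1.09). A Plet1 UMI was detected in 89.7%, 93.6% and 93.3% of the cells, at median depths of 2822, 3652 and 3287 UMIs. Undivided by depth, the ratio of Plet1 UMIs per cell between upper and no Cxcl2 was 1.47, as the upper group had 1.19 times the UMIs per cell.

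The difference lay at the top of the Cxcl2 scale. With the Cxcl2-positive cells ordered by Cxcl2 and cut into 10 bins of 136 or 137 cells, Plet1 ran between 9.98 and 11.5 UMIs per 10000 in bins 1 to 8, then stood at 12.7 (11.7 to 13.7) in bin 9 and 17.0 (15.8 to 18.1) in bin 10. Bin 10, whose 136 cells held 101 Cxcl2 UMIs per 10000, had 1.68 times the Plet1 of the cells without Cxcl2 (1.55 to 1.82). Without bin 10 the upper group stood at 11.2 UMIs per 10000 and its ratio to none was 1.11 (1.05 to 1.18). Within bin 10 the lower quartile, median and upper quartile were all higher, at 9.93, 14.4 and 22.7 UMIs per 10000, against 5.12, 8.70 and 14.1 in the cells without Cxcl2. Bin 1 held cells of a single Cxcl2 UMI at high depth (median 5292 UMIs), since at 1 UMI the order follows depth. Median depth fell on through bins 2 to 4, at 3678, 3000 and 2503 UMIs, and was 3463 in bin 5. The order of the low bins is thus partly one of depth.

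Plet1 was then placed among all genes. A rate at least 1.5 times as high in the upper group as without Cxcl2 was found in 1.22% of the 4021 genes detected in at least 10% of cells, Cxcl2 left out, and Plet1 was not among them. A ratio higher than that of Plet1 was found for 205 genes (5.10%), and the median ratio over all genes was 0.977. Tnf (7.33), Nfkbiz (6.26), Egr1 (5.53), Nfkbia, an inhibitor of NF-κB (3.50) and Tnfaip3, a deubiquitinase of the same loop (2.65), had far higher ratios than Plet1. As Plet1 was chosen for its link with such cells, nothing further is read from this place.

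Plet1 was lower, per UMI, in the cells with a Top2a UMI. Top2a encodes the DNA topoisomerase of mitosis, and its 128 positive cells held 8.26 Plet1 UMIs per 10000 (7.54 to 9.04) against 11.3 (11.01 to 11.5) in the other 1927. The ratio was 0.734 (0.668 to 0.805). The Top2a cells also held 1.32 times the UMIs per cell of the others, so that Plet1 UMIs per cell were nearly level, at 3.76 against 3.88 (ratio 0.968). With 2 or more listed G2/M genes as the mark of cycling cells, 161 cells held 8.82 and the other 1894 cells 11.3 UMIs per 10000 (ratio 0.784). The listed S-phase gene Dut, of nucleotide metabolism, stood at 2.27 against 0.428 UMIs per 10000 in the same Top2a split. A rate in the Top2a cells at most 1/1.5 of that in the others was found in 5.62% of the 4022 genes, Plet1 not among them, and 448 genes (11.1%) had a lower ratio than Plet1.

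The Cxcl2 and Top2a patterns were seen beside each other. In cells with no Cxcl2, Plet1 stood at 10.2 UMIs per 10000 without and 8.10 with Top2a, the latter from 33 cells. The lower Cxcl2 group gave 10.7 without and 7.48 with Top2a (51 cells), and the upper group gave 12.7 and 9.27 (44 cells). The value with Top2a was the lower one in each of the 3 groups, and this difference was not tested.

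**Figure D3:**
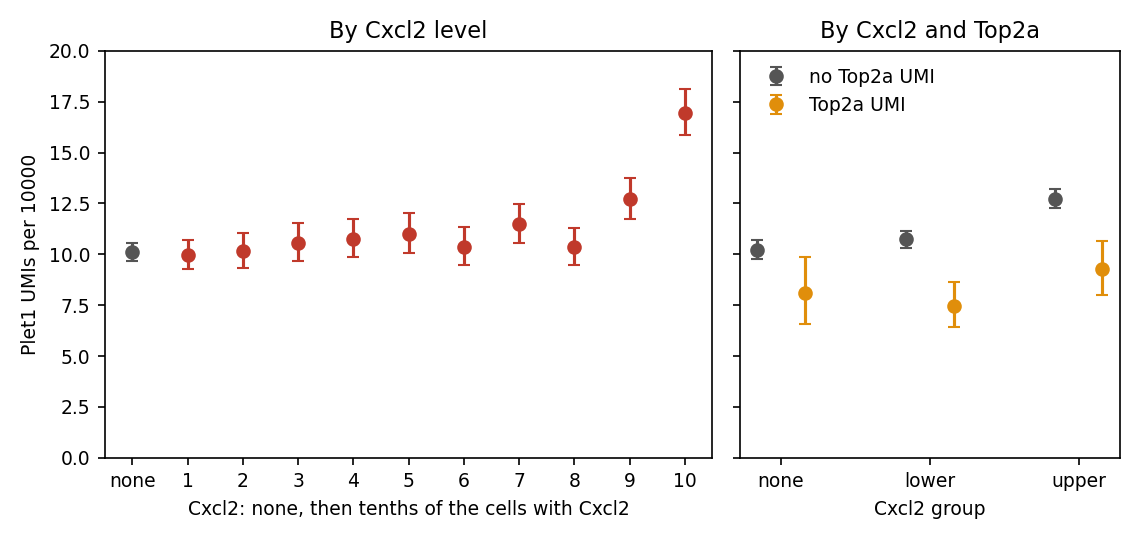
Plet1 UMIs per 10000 (vertical axis), from summed UMIs with exact Poisson 95% intervals as bars. Left, cells without Cxcl2 (grey) and 10 bins of Cxcl2-positive cells in order of Cxcl2 (red), where bin 10 stands highest at 17.0; right, the Cxcl2 groups split by Top2a, where the Top2a points (orange) lie at 7.48 to 9.27 and the others (grey) at 10.2 to 12.7.

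Across the 2055 cells no gene followed Plet1 closely. On the deposited log values, an r of 0.2 or more was found for 0 of 4022 genes (0%), and the highest 10 were Tnf (r = 0.157), Cxcl2 (0.146), Nfkbia (0.129), Egr1 (0.129), Tnfaip2 (0.122), Ccl6 (0.121), Nfkbiz (0.121), Tnfaip3 (0.119), Plaur (0.117) and Fosb (0.116). The median r over all genes was 0.0127. The cells share 1 library and differ in depth, and correlations this weak in sparse counts are no finding by themselves. On Pearson residuals of the UMIs, which give large counts more weight, 0.124% of genes (5) reached 0.2, namely Nfkbiz (0.235), Cxcl2 (0.231), Nfkbia (0.208), Tnfaip3 (0.208) and Egr1 (0.203), while Ccl6, a macrophage chemokine, was at 0.0750 and Plaur at 0.0723.

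The list of 10 changed with the cells and the scale used. With cells thinned to 2000 UMIs, or with 0.1 in place of 1 added before the log, 4 of the 10 stayed in the top 10. Among cells with no Cxcl2 UMI, 2 of the 10 genes stayed in the top 10 (Tnfaip2 and Fosb), and without bin 10 there were 4 (Ccl6, Plaur, Fosb and Tnfaip2), with r between Plet1 and Cxcl2 at 0.0698. The genes at the other end were Rpl24 (r = -0.0727), Rpl17 (-0.0666), Lsm2 (-0.0665), Rbm7 (-0.0635) and Cst3 (-0.0632). Of the 3'-end sequences of Rpl24 and Rpl17, 76.8% and 46.1% also occur in other genes, so their counts are uncertain. Without the 8 cells low in AM identity genes, Cst3 stood at -0.0501 and was 22nd from the bottom.

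**Figure D4:**
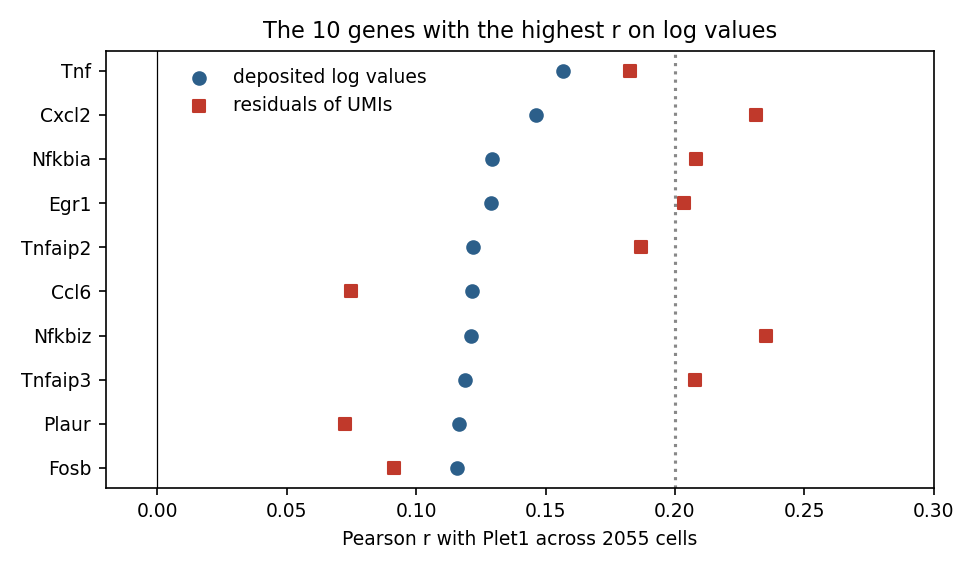
Pearson r with Plet1 across 2055 cells (horizontal axis) for the 10 genes with the highest r on the deposited log values (blue circles), with r on residuals of the UMIs (red squares); the dotted line marks 0.2. All 10 circles lie left of the line, and 5 squares (Cxcl2, Nfkbia, Egr1, Nfkbiz and Tnfaip3) lie right of it.

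Read by gene group on the log values over all cells, the genes nearest to Plet1 were those of the NF-κB feedback list. Of these, 5 of 9 were detected in at least 10% of cells, with a median r of 0.119 (Nfkbia 0.129, Sod2 0.0202). In cells with no Cxcl2 UMI, and also without bin 10, Nfkbia, Nfkbiz and Tnfaip3 were not among the 10 genes with the highest r. The 7 measured chemokines and cytokines had a median of 0.0648, from Tnf at 0.157 to Ccl4 at -0.0261. The 14 immediate-early genes had a median of 0.0518, from Egr1 at 0.129 to Atf3 at -0.0521, so members of 1 group lay on both sides. The metallothioneins Mt2 and Mt1, metal-binding stress proteins, had an r of 0.107 and 0.0747. The 6 measured heat shock genes had a median of 0.0369.

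AM identity genes were only weakly related to Plet1. Of 26 measured, 25 had an r above 0, as did 69.3% of all genes. The median was 0.0359 against 0.0127 over all genes, and 0.0193 against -0.0010 on residuals. The values ran from Car4, a carbonic anhydrase on a GPI anchor, at 0.0997 to the transcription factor Bhlhe41 at -0.0181. In 4 groups of cells in order of the summed AM identity genes, Plet1 stood at 9.99, 11.2, 11.2 and 11.5 UMIs per 10000. The GM-CSF, TGF-β and PPAR-γ list had a median r of 0.0226 over 14 genes, with the GM-CSF receptor subunit Csf2rb highest at 0.0921. Lipid handling genes had a median of 0.0249 over 13 and MHC class II genes 0.0239 over 5. On residuals the medians of the last 3 lists were 0.0164, 0.00252 and -0.0385, so the MHC class II genes changed sign with the scale. Cells with an H2-Ab1 UMI held 11.6 Plet1 UMIs per 10000 and cells without held 10.8 (ratio 1.07, 1.02 to 1.13).

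The machinery and the company of a GPI-anchored protein were read in the same way. All 28 listed genes of GPI synthesis and attachment had UMIs, and 9 passed the detection limit, with a median r of 0.00500 and a range from Pigt at -0.0245 to Pgap2 at 0.0464. Of 17 listed other GPI-anchored proteins, 9 passed, with a median of 0.0297, from Plaur at 0.117 to Cd52 at -0.0270. Of 14 listed growth and repair factors, 9 passed, with a median of 0.0352 and with Spp1, osteopontin, highest at 0.0967. On residuals the medians of these lists, in the same order, were -0.0113, 0.00781 and 0.00565.

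Epithelial cells are another source of Plet1 in the body, and transcripts of the alveolar type 2 and airway lists were present at trace level. The alveolar type 2 list (7 of 7 with UMIs, 234 UMIs in 182 cells) and the airway list (5 of 7, 176 UMIs in 124 cells; Foxj1 and Krt5 have no row) were found in 283 cells in all. Those 283 cells held 11.2 Plet1 UMIs per 10000 and the other 1772 held 10.99 (ratio 1.02, 0.959 to 1.08). The alveolar type 2 list stood at 0.245, 0.368 and 0.342 UMIs per 10000 in the none, lower and upper Cxcl2 groups, and its part in the Cxcl2 pattern was not tested. Of the general epithelial list, Krt8, Krt18 and Cldn18 have no row, while Epcam was detected in 58.1% of cells with an r of 0.0781. In cells with over 5% mitochondrial UMIs Plet1 stood at 11.8 UMIs per 10000, against 10.9 in the rest (ratio 1.09, 1.03 to 1.15). The median mitochondrial share was 3.19%, 3.26% and 3.15% in the none, lower and upper Cxcl2 groups, and the Cxcl2 ratio of Plet1 in cells of at most 5% was 1.23. The B and plasma cell list stood at 0.168, 0.0967 and 3.94 UMIs per 10000 in the same groups. Its UMIs came mostly from the cell with most Jchain, among the 8 cells above. The monocyte list stood at 3.17, 3.38 and 3.22 and the neutrophil list at 0.491, 0.413 and 0.537 UMIs per 10000, and their part was not tested. Without those 8 cells the Cxcl2 ratio of Plet1 was also 1.23.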

How the data were processed

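The authors aligned the reads to mm10 and counted UMIs with Cell Ranger 2.1, and describe leaving out cells with over 2500 genes as likely doublets and cells with over 5% mitochondrial content. They also describe removing ribosomal protein genes and sex-specific genes such as Xist. The deposited table still held cells over the mitochondrial limit, 104 Rpl and Rps genes and Xist, so it differs from the processing described. The authors deposited the natural log of 1 plus UMIs per 10000 (Seurat), and a scaled score after regression on depth and mitochondrial content. UMIs were recovered from the smallest step of each cell (100% of values whole within 0.01 UMI). No doublet caller was run.

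Rates were summed UMIs over summed totals, with exact Poisson, exact binomial and, for ratios, conditional binomial intervals. Correlation was Pearson's r of the log values over genes detected in at least 10% of cells. The scripts were tested on simulated data. No test was run on 1 library. Named genes were Plet1, Cxcl2, Top2a, the 10 highest and 5 lowest r, the 3 nearest in level on either side, and the highest and lowest r of each list. Other genes that illustrate a list, a marker or a tail of cells were chosen after their values were seen. The gene and the lists were chosen with earlier results of these data known. Python 3.11.15, numpy 2.4.6, scipy 1.17.1, pandas 2.3.3 and matplotlib 3.10.9 were used.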

Additional observations from a re-analysis of the deposited data

How the results depend on the processing

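No paired analysis was possible because there is 1 library. Under the alternatives tried no ratio changed direction, and the level of Plet1 moved in none of 5. With cells thinned to 2000 UMIs, detection was 85.8%, the Cxcl2 ratio, with groups redrawn on the thinned UMIs, was 1.33, and 4 of the 10 genes with the highest r stayed. Without the 1% of cells with most Plet1 the excess spread was 0.0993. The Cxcl2 ratio was 1.35 in the middle of 3 depth groups (1.20 and 1.18 in the shallow and deep groups) and 1.35 on the log scale with 0.1 added, where 4 of the 10 genes stayed. In cells with no Cxcl2 UMI, 2 of the 10 genes stayed. Of alternatives chosen after seeing the data, leaving out the top Cxcl2 bin gave a ratio of 1.11 and 4 genes, and UMIs per cell, undivided by depth, gave 1.47 for Cxcl2 and 0.968 for Top2a. Apart from whether a difference is read per UMI or per cell, the causes were not tested. The other 11 Top2a ratios lay between 0.701 and 0.794. Limits: 1 mouse, 1 library, so no value has an error between animals.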
